A study of Mus musculus with 6 samples.

Results

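The mesothelial surface epithelium markers are 10 genes that mark the flat epithelium covering the ovary and the peritoneal cavity. They are *Msln*, *Muc16*, *Muc1*, *Upk3b*, *Upk1b*, *Podxl*, *Pdpn*, *Lrrn4*, *Gpm6a* and *Calb2*. They were chosen by gene symbol in the deposited table, with the brightest probe set standing for a gene. Of the 10 genes, 9 had a symbol in the table, each with 1 probe set, among 20405 genes in all, and *Muc16* was not analysed here. Whole-transcript mouse arrays from Affymetrix (Mouse Gene 1.0 ST) were read for M0505 cells (3 arrays) and STOSE cells (3 arrays). M0505 is an early passage line of ovarian surface epithelial (OSE) cells from an FVB/N mouse. STOSE is the line that arose when M0505 cells transformed spontaneously during prolonged culture, so both lines carry the FVB/N background, come from a single isolate and were kept in the same medium, α-Minimal Essential Medium with fetal calf serum, EGF, ITSS and antibiotics. No transgene or drug treatment separates them. Their karyotypes differ in the paper, with M0505 cells near-diploid or near-tetraploid and STOSE cells near-triploid or polyploid. The part of gene copy number in any difference was not tested. The labels call the arrays of a line biological replicates without saying that they came from separate cultures, so the p-values measure the spread between these arrays, which may be technical.

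The values are robust multi-array average (RMA) values on a log2 scale, in which a difference of 1 is 2-fold. The highest value in the table was 12.81. Olfactory receptor genes, which an ovarian epithelium is presumed not to use, gave the measure of background: their 1134 probe sets had a median of 3.12 and a 95th percentile of 4.74. Array medians over genes were 6.46 to 6.49 in M0505 cells and 6.25 to 6.29 in STOSE cells. Over all probe sets of the table, with or without a symbol, the medians of the 6 arrays were nearly level, at 5.64 to 5.68. The value of a probe set depends on its probes, so levels were compared between lines for a gene and never between genes.

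The ovarian surface epithelium is a modified mesothelium, continuous with the lining of the peritoneal cavity, and shares with it an uncommon mix of epithelial and mesenchymal features. Its surface carries glycoproteins that keep facing serosal layers from adhering. Mesothelin, encoded by *Msln*, is a lipid-anchored glycoprotein that binds the mucin MUC16, the carrier of the CA125 antigen used to follow ovarian cancer, and MUC1 is another large transmembrane mucin. Uroplakins, first known from the bladder lining, include UPK3B and UPK1B, which mesothelial cells also make, the latter a tetraspanin. Podocalyxin (*Podxl*) and podoplanin (*Pdpn*) are heavily sialylated membrane proteins tied to the actin cortex, and *Lrrn4* and *Gpm6a* encode membrane proteins first described in neurons. Calretinin (*Calb2*), a cytoplasmic calcium-binding protein, is a routine stain for human mesothelium.

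Promoter windows in RefSeq were at hand for 6 of the 10 genes, in 7 windows of 250 bases that end at an annotated transcript start (build GRCm38.p6). The 4 windows printed are those that hold GGAATG, in front of 3 genes with a high signal in both lines (*Upk3b*, *Lrrn4*, *Gpm6a*) and of *Muc1*, which was under the background percentile in both. Capitals mark GGAATG or its reverse complement CATTCC, the core of the element bound by TEAD factors, and each sequence runs 5′ to 3′ toward the gene.
Upk3b, chr5:136038246-136038495, plus strand: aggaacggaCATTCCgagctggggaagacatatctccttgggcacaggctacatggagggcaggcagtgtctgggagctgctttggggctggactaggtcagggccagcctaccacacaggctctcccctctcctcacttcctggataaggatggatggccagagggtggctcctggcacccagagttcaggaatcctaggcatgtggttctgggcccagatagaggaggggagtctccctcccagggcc
Lrrn4, chr2:132880863-132881112, minus strand: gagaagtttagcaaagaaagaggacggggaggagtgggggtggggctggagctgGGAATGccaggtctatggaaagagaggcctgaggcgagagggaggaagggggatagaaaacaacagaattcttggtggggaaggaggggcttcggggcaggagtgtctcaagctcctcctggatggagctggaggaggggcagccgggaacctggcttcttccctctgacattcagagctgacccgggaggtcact
Gpm6a, upstream start, chr8:54779184-54779433, plus strand: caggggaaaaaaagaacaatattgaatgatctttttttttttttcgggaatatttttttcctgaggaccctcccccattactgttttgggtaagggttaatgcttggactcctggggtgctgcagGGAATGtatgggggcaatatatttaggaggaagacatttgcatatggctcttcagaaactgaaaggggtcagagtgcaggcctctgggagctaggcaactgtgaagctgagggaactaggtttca
Muc1, chr3:89228806-89229055, plus strand: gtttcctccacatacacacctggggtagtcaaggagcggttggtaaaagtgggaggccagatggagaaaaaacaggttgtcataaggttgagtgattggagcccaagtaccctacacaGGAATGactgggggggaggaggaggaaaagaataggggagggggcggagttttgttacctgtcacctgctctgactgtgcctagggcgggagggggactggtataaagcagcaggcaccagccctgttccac
Searched on both strands, GGAATG was in 4 of the 7 windows, those printed here, and in 12.6% of the 32851 windows of all genes. The windows of *Pdpn* and *Muc16* and the second window of *Gpm6a* did not hold it. *Muc1*, under the background percentile, thus held these letters, and *Pdpn*, high in both lines, did not. The TATAAA box was in 2 of the 7 windows (12.4% of all), GGGCGG in 1 (32.7%) and CCAAT in 1 (33.8%). The printed *Muc1* window held all 3 of them. CCAAT on the reverse strand and GGGCGG can share their end bases with GGAATG, which did not happen in this window. The member windows held 0 to 5 CG dinucleotides, against a median of 6 over all windows. A match is a description of the letters and not a binding site.

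On the arrays, 7 of the 9 genes were far above the background percentile in both lines, and 8 of the 9 were not called changed. *Podxl* alone passed the threshold of at least 2-fold with an adjusted p below 0.05, and was lower in STOSE cells. That is 1 of 9 genes called lower and 0 called higher, where 7.59% of all genes were called lower, 4.9% higher and 12.5% either way, so the count of members is near the background. By limma 0 members were higher, and 5 were lower, at an unadjusted p under 0.05, and the methods' t-test gave the same unadjusted counts, with 4 lower after adjustment. At the adjusted p alone 5 of 9 were lower and 0 higher, against 24.8% and 31.6% of all genes. The 95% interval of the fold change lay within 2-fold either way for 8 of the 9 genes, against 82.7% of all genes. The median log2 difference of the 9 genes was −0.29, and that of all genes was 0.08.

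The size of the smaller differences depends on the scaling. STOSE minus M0505, the mean of the array medians over genes differed by −0.20 in log2 units. Centring each array on this median moved the median difference of all genes from 0.08 to 0.28. The gap of −0.20 was seen over the genes kept and not over all probe sets. Centring thus moved apart arrays that were nearly level over the whole table. Of the calls over all genes 60.8% were lower in STOSE cells as deposited, 55.1% after a further quantile normalization and 44.5% after centring. For the 9 genes the median difference was −0.09 after centring, with 5 lower and 4 higher, against 8 lower and 1 higher as deposited and 9 lower after a further quantile normalization.

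**Figure D1:**
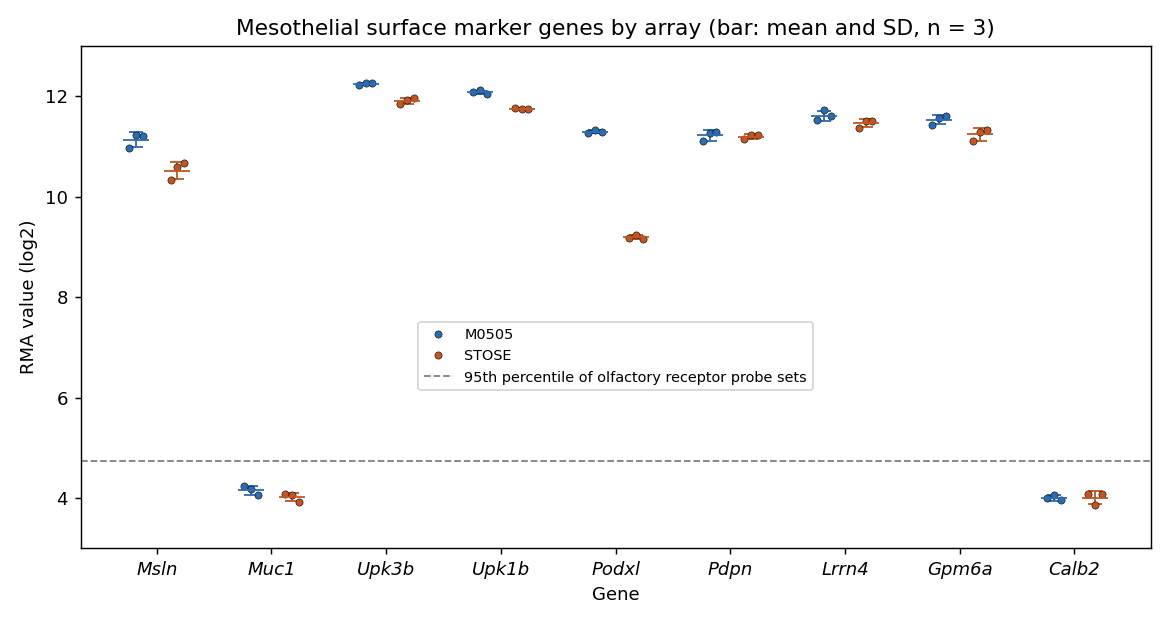
RMA values (log2) of the 9 marker genes on each array, with M0505 arrays in blue, STOSE arrays in orange, and horizontal bars with whiskers for the mean and SD (n = 3). The dashed line is the olfactory receptor 95th percentile of 4.74. *Muc1* and *Calb2* lie under it on all arrays, and *Podxl* has the widest gap between the lines, from a mean of 11.29 to 9.19.

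*Msln* had log2 values of 10.96, 11.23 and 11.21 in the M0505 arrays and 10.34, 10.58 and 10.66 in the STOSE arrays. The groups did not overlap, which was so in the lower direction for 27% of all genes and for 6 of the 9 markers. In the higher direction it was so for 0 markers and for 37.6% of all genes. The mean was 11.13 ± 0.15 (SD, n = 3) in M0505 cells and 10.52 ± 0.17 in STOSE cells, a difference of −0.61 (standard error 0.11, 95% interval −0.85 to −0.37, limma adjusted p = 0.00127). This is 1.52-fold lower, under the 2-fold threshold, and the difference was −0.41 after centring. Its STOSE arrays were all well above the background percentile.

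*Muc1* was under the background percentile on all 6 arrays, at 4.24, 4.17 and 4.05 in M0505 cells and 4.08, 4.05 and 3.93 in STOSE cells. The lines overlapped, and the difference of −0.13 was not past the threshold (95% interval −0.30 to 0.04, limma adjusted p = 0.156). It was 0.07 after centring. At this signal a true difference between the lines might not be seen.

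*Upk3b* was at 12.23, 12.26 and 12.26 in M0505 cells and at 11.85, 11.92 and 11.96 in STOSE cells. All STOSE arrays were below all M0505 arrays, by a difference of −0.34 (standard error 0.06, 95% interval −0.47 to −0.21, limma adjusted p = 0.00103), which is 1.27-fold. *Upk1b*, the tetraspanin uroplakin, behaved alike on the arrays, at 12.08, 12.12 and 12.05 against 11.76, 11.75 and 11.75. Its difference was −0.33 (standard error 0.05, 95% interval −0.45 to −0.20, limma adjusted p = 0.00096), or 1.25-fold. Neither reached 2-fold. After centring the differences were −0.14 for *Upk3b* (limma adjusted p = 0.0592) and −0.13 for *Upk1b* (limma adjusted p = 0.0529). Both genes had values close to the table's highest of 12.81, where array signals can flatten, and whether this made their differences smaller was not tested.

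*Podxl* was at 11.27, 11.32 and 11.28 in the M0505 arrays and at 9.17, 9.24 and 9.16 in the STOSE arrays. The lines were separated by far more than the spread within either, with means of 11.29 ± 0.03 (SD, n = 3) and 9.19 ± 0.04. *Podxl* fell by 2.10 on the log2 scale (value −2.10, standard error 0.06, 95% interval −2.23 to −1.97, limma adjusted p = 2.99e-08), which is 4.28-fold, and it was −1.90 after centring. With each array left out in turn the fold ranged from 4.23 to 4.35. The STOSE level was still well above the background percentile. In bulk RNA, fewer cells with the transcript and less transcript per cell cannot be told apart.

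*Pdpn*, the other sialylated glycoprotein of the list, was at 11.10, 11.27 and 11.29 in M0505 cells and at 11.14, 11.22 and 11.22 in STOSE cells. The groups overlapped, and the difference was −0.03 (standard error 0.07, limma adjusted p = 0.76), or 0.17 after centring. The 95% interval of −0.19 to 0.13 leaves out a change of the size seen for *Podxl*.

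*Lrrn4* was at 11.52, 11.72 and 11.61 in M0505 cells and at 11.37, 11.50 and 11.51 in STOSE cells. The STOSE arrays were all lower, by a margin of 0.01 between the nearest pair as rounded, and the difference of −0.15 was not past the threshold (95% interval −0.32 to 0.02, limma adjusted p = 0.111). It was 0.05 after centring. *Gpm6a* was at 11.43, 11.56 and 11.60 against 11.10, 11.29 and 11.33, also without overlap. Its difference of −0.29 (standard error 0.08, 95% interval −0.48 to −0.10, limma adjusted p = 0.0165) is 1.22-fold. It was −0.27 without M0505 replicate 2 (limma adjusted p = 0.0567), −0.25 without M0505 replicate 3 (0.0616) and −0.09 after centring (0.375). *Gpm6a* was also not among the 4 markers that the methods' t-test called lower after adjustment, so its difference depends on the arrays, the scaling and the test.

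*Calb2* was under the background percentile on all arrays, at 4.00, 4.06 and 3.96 in M0505 cells and at 4.08, 3.86 and 4.07 in STOSE cells. The lines overlapped, with a difference of 0.00 (95% interval −0.17 to 0.17, limma adjusted p = 0.993). This difference was −0.09 after a further quantile normalization (limma adjusted p = 0.307). After centring it was 0.20 (limma adjusted p = 0.0335), under 2-fold. Of the named markers, calretinin and *Muc1* were thus the 2 without a signal above background in either line.

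**Figure D2:**
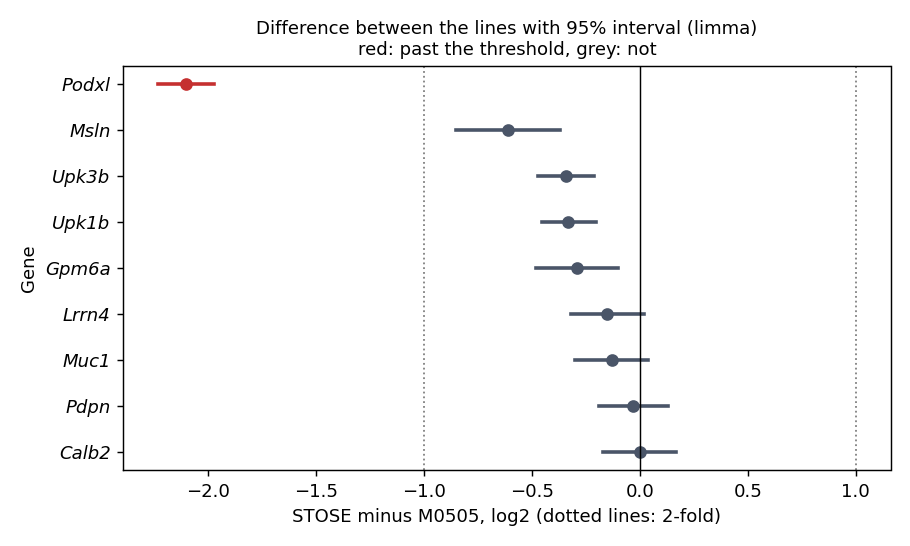
Difference between STOSE and M0505 cells in log2 units for the 9 markers, with points for the limma estimate and lines for its 95% interval. The interval of *Podxl*, −2.23 to −1.97, lies beyond the dotted 2-fold line, and the intervals of the other 8 genes lie inside the 2-fold lines.

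The spread of the arrays within a line was as small for these genes as for the array as a whole. The median of the pooled within-line SD was 0.09 for the 9 markers and 0.09 for all genes, from 0.02 for *Upk1b* to 0.16 for *Msln*. M0505 replicate 1 was below the mean of its line in 8 of 9 markers and STOSE replicate 1 in 6 of 9. Their median deviations were −0.02 and −0.06. M0505 replicate 2 was below that mean in 0 of 9, with a median deviation of 0.03. Over all genes the median deviation of these arrays was −0.001, 0.008 and 0.013, in that order. Over the 1825 genes with a mean of 10 or more it was −0.01, 0 and 0.01.

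**Figure D3:**
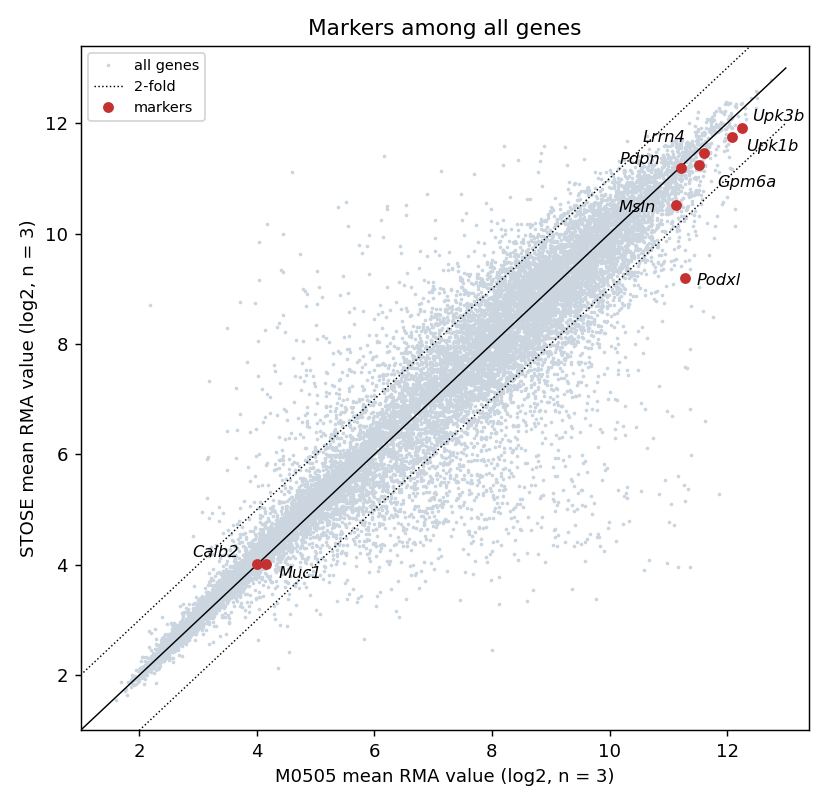
Mean RMA value (log2, n = 3) in STOSE cells against M0505 cells, with all 20405 genes in grey and the 9 markers in red, the solid line for equal values and the dotted lines for 2-fold. *Podxl* is the marker outside the 2-fold lines, and *Muc1* and *Calb2* lie near 4 on both axes.

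Relatives of the markers were read from lists of gene families and partners, chosen with earlier results of these data known. Over all genes 4.9% were called higher and 7.59% lower. Single calls in lists this short were not read as a result about a list. Of 5 uroplakins none was called changed. *Upk1a*, the tetraspanin paired with uroplakin 2 in the bladder, was at 5.80, 5.91 and 5.73 in M0505 cells and 6.69, 6.28 and 6.22 in STOSE cells, a difference of 0.58 (standard error 0.12, limma adjusted p = 0.00359) that is under 2-fold. *Upk2* differed by 0.17 (limma adjusted p = 0.193) and *Upk3a* by 0.12 (limma adjusted p = 0.129). In the mesothelin family none of 4 genes was called, and *Mslnl*, a mesothelin-like gene, differed by 0.32 (limma adjusted p = 0.00879), the reverse sign of *Msln*. Of 8 membrane mucins on the array 1 was called, *Muc13*, an epithelial mucin that fell by 1.06 (value −1.06, limma adjusted p = 9.29e-06) to under the background percentile in STOSE cells. This call was close to 2-fold and was lost after centring (−0.86) and, by a narrow margin, without M0505 replicate 1.

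*Cd34*, the founder of the sialomucin family to which podocalyxin belongs, fell as *Podxl* did. It was at 7.85, 8.42 and 8.39 in M0505 cells and at 5.40, 5.52 and 5.22 in STOSE cells, a difference of −2.84 (standard error 0.15, limma adjusted p = 1.38e-06). The third member, *Podxl2*, differed by 0.03 (95% interval −0.12 to 0.18, limma adjusted p = 0.724). Thus 2 of the 3 CD34 sialomucins were lower, *Podxl* itself among them, against 7.59% of all genes. Of 9 partners of podocalyxin and podoplanin, 3 were higher and 0 lower, against 4.9% and 7.59% of all genes. *Cd9*, a tetraspanin that binds podoplanin, rose by 1.53 (standard error 0.14, limma adjusted p = 3.31e-05). *Cd44*, the hyaluronan receptor that binds podoplanin, rose by 1.32 (standard error 0.09, limma adjusted p = 4.29e-06). *Slc9a3r2*, the scaffold that links podocalyxin to ezrin, rose by 1.01 (standard error 0.06, limma adjusted p = 1.87e-06), and was at 0.99, under 2-fold, without M0505 replicate 1 or 3. Ezrin itself (*Ezr*) differed by −0.27 (limma adjusted p = 0.00351).

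The relatives of *Lrrn4*, *Gpm6a* and *Calb2* held 1 call each, where 12.5% of all genes were called either way. *Lrrn4cl*, the gene named for its likeness to the end of *Lrrn4*, fell by 1.51 (value −1.51, standard error 0.12, limma adjusted p = 1.07e-05), 1 of 5 genes of the LRRN family. *Lrrn2* was at the edge, with −0.99 on all arrays and −1.03 without M0505 replicate 3. *Gpm6b*, the closest relative of *Gpm6a*, fell from 7.62, 7.71 and 7.71 in M0505 cells to 4.25, 4.70 and 4.34 in STOSE cells. The difference was −3.25 (standard error 0.11, limma adjusted p = 1.25e-07), with STOSE cells under the background percentile. *Calb1*, calbindin, fell by 1.23 (value −1.23, standard error 0.13, limma adjusted p = 5.98e-05), 1 of 5 EF-hand genes in its list. Among 7 tetraspanins listed beside *Upk1b*, *Cd9* rose and *Tspan8* fell, the latter by 5.28 (value −5.28, standard error 0.10, limma adjusted p = 6.82e-09), and the remaining 5 were not called.

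**Figure D4:**
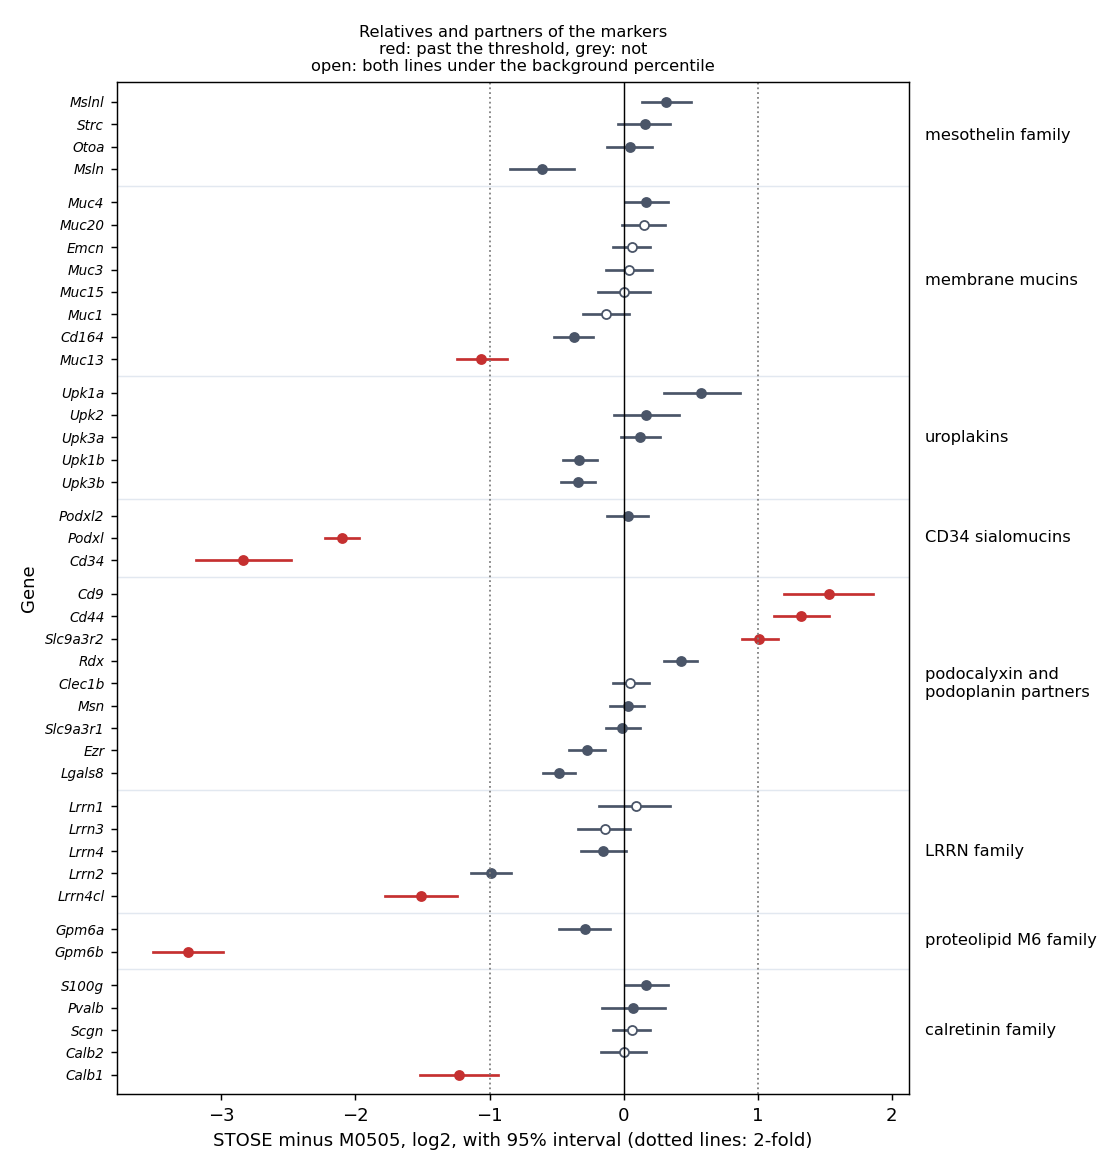
Difference between STOSE and M0505 cells (log2, with 95% interval) for the families and partners of the markers, 1 row per gene. Red points passed the threshold and open points were under the background percentile in both lines. The tetraspanin list is not plotted. Of the genes plotted, *Gpm6b* (−3.25), *Cd34* (−2.84) and *Podxl* (−2.10) lie farthest to the left.

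Beside the label of the cells, ovarian surface epithelium, 30 further genes known from this tissue or from mesothelium were read, of which 29 were on the array. Of these, 14 were lower and 1 was higher in STOSE cells, and the median difference was −0.84, against 7.59%, 4.9% and 0.08 over all genes. After centring 11 were lower, since *Bnc1*, *Krt7* and *Rspo1* lay near 2-fold. The list was chosen with earlier results of these data known. It holds *Aldh1a2*, *Igfbp5* and *Thbd*, which the authors list among their most down-regulated genes, so these counts do not test the label. The 4 largest falls were those of *Aldh1a2*, an enzyme of retinoic acid synthesis (−7.41), *Igfbp5*, a secreted binder of insulin-like growth factors (−6.59), *Thbd*, the thrombin receptor thrombomodulin (−6.25), and *Krt19*, a simple-epithelium keratin (−5.56). The gene that rose was *Slpi*, a secreted protease inhibitor, by 2.66 (standard error 0.12, limma adjusted p = 5.58e-07). This and the following genes were singled out after their values were seen. *Wt1*, the Wilms tumor factor of mesothelium, was at 11.42, 11.41 and 11.36 in M0505 cells and at 10.79, 10.74 and 10.76 in STOSE cells. It differed by −0.63 (standard error 0.05, limma adjusted p = 1.96e-05), under 2-fold and close to the −0.61 of *Msln*. *Gata6*, a factor of the same epithelium, differed by −0.30 (limma adjusted p = 0.0038), and *Krt18*, a keratin of simple epithelia, by −0.84 (limma adjusted p = 4.49e-06). Its partner *Krt8* fell by 4.55 (value −4.55, standard error 0.08, limma adjusted p = 4.98e-09). In this list *Lhx9* and *Tcf21* were under the background percentile in both lines.

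**Figure D5:**
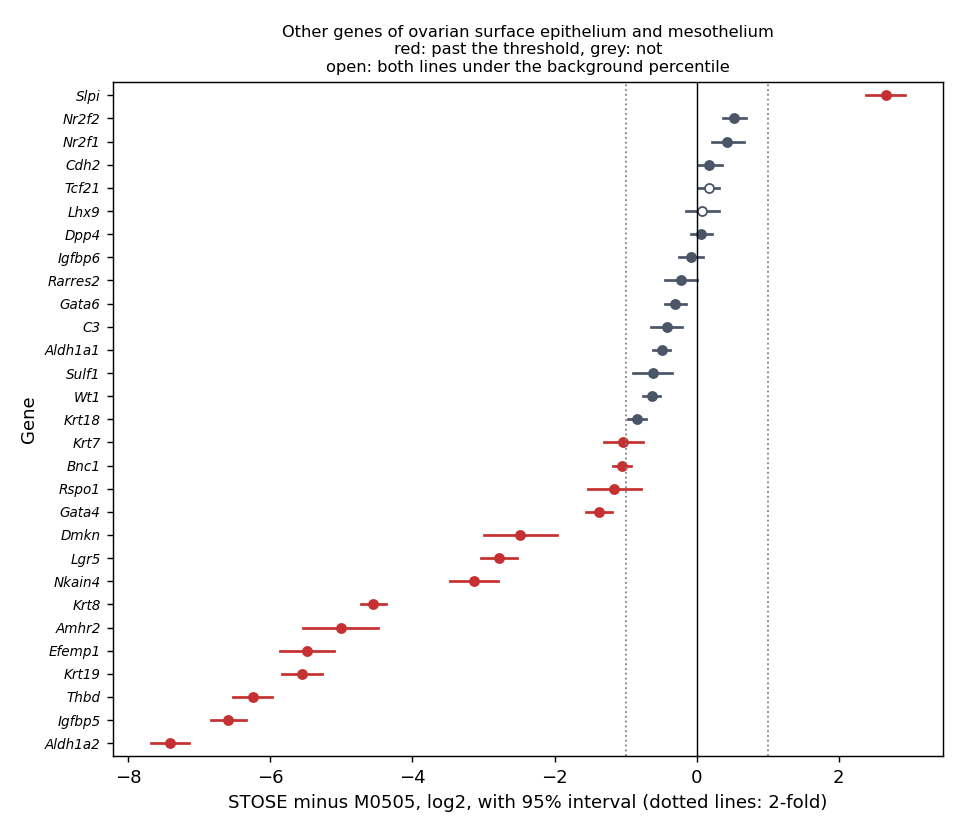
Difference between STOSE and M0505 cells (log2, with 95% interval) for 29 further genes of ovarian surface epithelium and mesothelium, ordered by size. Red points passed the threshold, with 14 to the left of the lower 2-fold line and *Slpi* (2.66) to the right. *Wt1* (−0.63) lies inside the 2-fold lines.

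Markers of other cell types that the cultures could hold, some of which also make podocalyxin or podoplanin, were read beside these results. Over all genes 4.9% were called higher and 7.59% lower, and these lists too were chosen with earlier results of these data known. Of 8 endothelial genes, *Kdr* and *Esam* fell (−5.17 and −2.77, limma adjusted p = 2.36e-08 and 1.85e-08), in the direction of *Podxl*, and the summed log2 level of the list was 47.7 to 48.5 in M0505 cells and 40.0 to 40.8 in STOSE cells. The gap in this sum lies in *Kdr* and *Esam*, since the median difference of the 8 genes was 0.05, with 2 higher and 3 lower at the adjusted p alone. *Pecam1*, a defining endothelial gene, was the only 1 of the 8 under the background percentile in both lines. *Cdh5*, *Cldn5*, *Tek*, *Tie1* and *Vwf* had means above it in both. Their means were 4.76 to 5.63 in M0505 cells and 4.78 to 5.71 in STOSE cells, the lowest near the percentile of 4.74. *Tek* had arrays on both sides of it, at 4.70, 4.90 and 4.68 in M0505 cells and 4.72, 4.79 and 4.82 in STOSE cells. The part of endothelial cells in the fall of *Podxl* was not tested. Of 5 lymphatic endothelial genes 1 fell (*Flt4*, −4.28), with *Lyve1* and *Prox1* under the background percentile and a summed level of 26.7 to 27.7 in M0505 cells and 22.9 to 23.7 in STOSE cells. *Flt4* alone makes up the gap in this sum, and the median difference of the 5 genes was 0.05. None of 5 podocyte genes was called, with sums of 24.5 to 24.9 and 24.8 to 25.2. Of 7 granulosa genes 1 fell (*Inha*, −3.93), and 2, *Fshr* among them, were under the background percentile in both lines. *Foxl2* (means 6.76 in M0505 and 6.39 in STOSE cells) and *Inhbb* (8.62 and 8.01) were above it. Of 7 leukocyte genes 1 fell (*Cd68*, −2.82), and 5, *Ptprc* among them, were under the background percentile in both lines. Of 7 stromal fibroblast genes *Thy1* rose (1.49) and *Col1a2* fell (−2.45), and after centring 3 of them were higher. Of 7 oviductal epithelium genes *Cldn3* (4.08) and *Ovgp1* (1.63) rose and *Krt7* (−1.03) fell. The call of *Krt7* was lost after centring (−0.83) and without STOSE replicate 1 (−0.89). It was also lost, by a narrow margin, without M0505 replicate 2 (−0.99) or M0505 replicate 3 (−1 as rounded).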

How the data were processed

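RNA of M0505 cells (3 arrays) and STOSE cells (3 arrays) was read on whole-transcript Affymetrix arrays (Mouse Gene 1.0 ST). The authors deposited 1 table of log2 values, normalized by robust multi-array average (RMA), in Affymetrix Expression Console per the submitters' processing notes. The deposited table also holds, as made by the authors, the mean log2 value of each line, the ratio of STOSE to M0505 and a signed fold change, a score whose minus sign marks genes lower in STOSE cells. These pooled columns were not used. Software versions and the genome build are not given in the sources used here, and probe signals were not used, so background correction and quantile normalization could not be undone. Columns were matched to arrays by name, with 0 left over.

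Of 28944 probe sets 23530 had a symbol, which gave 20405 genes, the brightest probe set standing for each. No filter on low values was applied, and all 9 markers present were tested. R 4.3.3 and limma 3.58.1 (lmFit, then eBayes) served to compare the lines, without covariates and with Benjamini-Hochberg adjustment over all genes, and a gene was called at an adjusted p under 0.05 and at least 2-fold. The code was tested on simulated data. Arrays have no read depth, and the number of arrays limits the precision. With 3 arrays per line no exact permutation test was reported. Named genes were all markers, up to 4 of the largest called changes of each further list, and family lists of up to 5 genes. Further genes, such as *Ezr*, *Pecam1*, *Fshr*, *Ptprc*, *Wt1* and *Krt8*, were named outside this rule with their values known. The markers and lists were chosen with earlier results of these data known, so lists are described by counts and medians without a test. One gene of the lists, *Adgre1*, was matched by an older symbol, and 1 gene of a family list is not reported here. Promoter windows are those of RefSeq (GRCm38.p6), cut to the 250 bases before a start.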

Additional observations from a re-analysis of the deposited data

How the results depend on the processing

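*Podxl* was called lower and no marker was called higher under each of the 21 alternatives, with 1 marker called lower in 19 of them. At the adjusted p alone 5 markers were called lower, and at a fold of at least 1.5 there were 2. Of all genes tested, 4.9% were called higher and 7.59% lower. These shares became 31.6% and 24.8% at the adjusted p alone, 11% and 14.1% at 1.5-fold, 0.912% and 2.49% at 4-fold and 2.47% and 4.87% under limma's treat test against 2-fold, because these alternatives move the threshold itself. Leaving out an array gave 4.68% to 5.22% higher and 7.39% to 7.8% lower.

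Among the markers that were not called, some signs changed. Centring each array on its median gave 0.05 for *Lrrn4*, 0.07 for *Muc1* and 0.17 for *Pdpn*, since it adds 0.20 to each difference. For *Calb2* centring gave 0.20 and a further quantile normalization −0.09, and the cause of the latter was not tested. With each array left out in turn *Calb2* ranged from −0.04 to 0.07 and *Pdpn* from −0.09 to 0.01. The difference of *Podxl* ranged from −2.12 to −1.90 and that of *Msln* from −0.69 to −0.41 over the 17 alternatives that give a value, all with a p under 0.05, adjusted except where the methods' t-test was left unadjusted. *Upk3b* and *Upk1b* passed that p in 16 of 17 and *Gpm6a* in 13 of 17. *Lrrn4* passed it in 1 of 17 and *Pdpn* in 0 of 17. *Muc1* and *Calb2* passed it in 1 of 14 each, *Calb2* as higher in STOSE cells after centring. *Muc1* and *Calb2* have no value where the dimmest genes were left out or values were raised to the background percentile.

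With the replicate number as a block 1 marker was called lower and 0 higher, and 4.91% higher and 7.59% lower were called over all genes. The block changed no call of a marker. Same-numbered arrays of the lines had deviations correlated at 0.26, 0.04 and 0.25, which for replicate 2 is close to 0, and the labels give no shared batch, so the numbers were not taken to pair the arrays. As a hint of pairing, 5 of 6 arrays correlated best with their own number, and the same number was lowest in both lines for 7 of 9 markers. Signal over background limits *Muc1* and *Calb2*, for which a true change might not be seen at this signal.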
